A study of Drosophila melanogaster with 3 samples.

Results

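The comparison set RNA from brains of dBRWD3 yem double mutant larvae of Drosophila melanogaster against RNA from brains of the control larvae, and covers what differed when both genes were mutant. A gene entered it when its row in the deposited table carried a gene name, had the highest mean among rows of that name and reached at least 1 RPKM (read numbers divided by transcript length and sequencing depth) in either library. Small RNA and mitochondrial names (snoRNA, snRNA, tRNA, rRNA, mir- and mt:) were left out. Of 15229 rows, 13359 named genes remained after repeated names were dropped, and 9360 genes met the rule. The study sequenced RNA depleted of ribosomal RNA from larval brains of the third instar in 3 strains, with 1 library each. The control strain was dBRWD3PX2/+, so its animals carried the same PX2 allele over a wild-type chromosome, and it is a heterozygous and not a wild-type control. The double mutant was dBRWD3PX2/PX2, yemGS21861/GS21861, and a single mutant, dBRWD3PX2/PX2, is given beside it and shares the control library. No source used here gives the number of brains pooled per library or the molecular nature of either allele. There were no replicates, so every difference is between these libraries with no measure of spread, and no test was run.

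BRWD3 proteins carry WD repeats and bromodomains, which bind acetylated histones, and are known as partners of the cullin 4 ubiquitin ligase, an enzyme complex that marks proteins for turnover. The yem product, yemanuclein, works with the chaperone HIRA to place the histone variant H3.3 into chromatin outside DNA replication. The brain of the third instar holds neural stem cells (neuroblasts), young and mature neurons and glia, and its preparations can keep the attached ring gland, the source of steroid hormone, and some imaginal disc, blood cell and fat tissue.

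The libraries carried brain RNA by their markers. The neuronal RNA-binding gene elav had 21.2, 32.1 and 40.7 RPKM in control, single mutant and double mutant, the order used for every trio of values in the text, and the glial homeobox gene repo had 12.4, 6.73 and 16.4 RPKM. The ring gland enzymes phm (279, 253 and 236 RPKM) and sad (192, 207 and 155 RPKM) were high throughout. Approximate depths, read from the smallest steps in the values, were 2.86e+07 reads for the control and double mutant and 2.22e+07 for the single mutant. In the control column 51.0% of the values above 0 had more than 6 digits and none did in the other columns, and 98.5% of those longer control values ended in 5. Means of 2 values with 6 digits would end in that way, but no source used here says that the control column is a mean. It is called a library here, and its depth and number of preparations are uncertain. Neither targeted gene was lower in the double mutant library than in control: BRWD3 had 29.1, 43.2 and 47.8 RPKM and yem, listed as yemalpha, had 11.9, 8.04 and 15.6 RPKM. Those values do not check the labels, since neither allele is stated to remove the RNA.

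Most genes differed little between double mutant and control, and more were higher than lower in the double mutant. Differences are given as log2((double mutant + 1)/(control + 1)) in RPKM, so a positive value means higher in the double mutant library, and the added 1 makes the difference of a weakly expressed gene smaller than its RPKM fold. The median over the 9360 genes was 0.08, the quartiles were -0.13 and 0.33, and 7918 genes (84.6%) lay within 1.5-fold. Genes with a 2-fold difference or more on that scale were called. By that count 289 genes (3.09%) were higher and 127 (1.36%) were lower, 4.44% in either direction, and 59.2% of all genes lay above 0 and 40.8% below it. Those shares are the background against which each gene list is read. A 4-fold difference was reached by 30 higher and 16 lower genes. The higher genes had a median of 11.8 RPKM in the double mutant and the lower genes a median of 6.22 RPKM in control. Among genes reaching 50 RPKM, 55 were higher and 6 lower. The split depends on scaling: higher genes made up 69.5% of the calls as deposited, and 84.5% (525 higher and 96 lower, with the median of all genes at 0.29) when both libraries were rescaled to the same summed RPKM. That rescaling multiplies the double mutant values by 1.18 relative to control, so genes slightly below control turn sign under it. Rescaled without the host genes of small RNAs, whose values are very large, the factor was 0.975, in the opposite direction, and 66.3% of the calls were higher (260 and 132). Where a list is said below to be rescaled to the same sum, the factor of 1.18 is meant. With the differences centred on their median, 61.1% of the calls were higher.

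**Figure D1:**
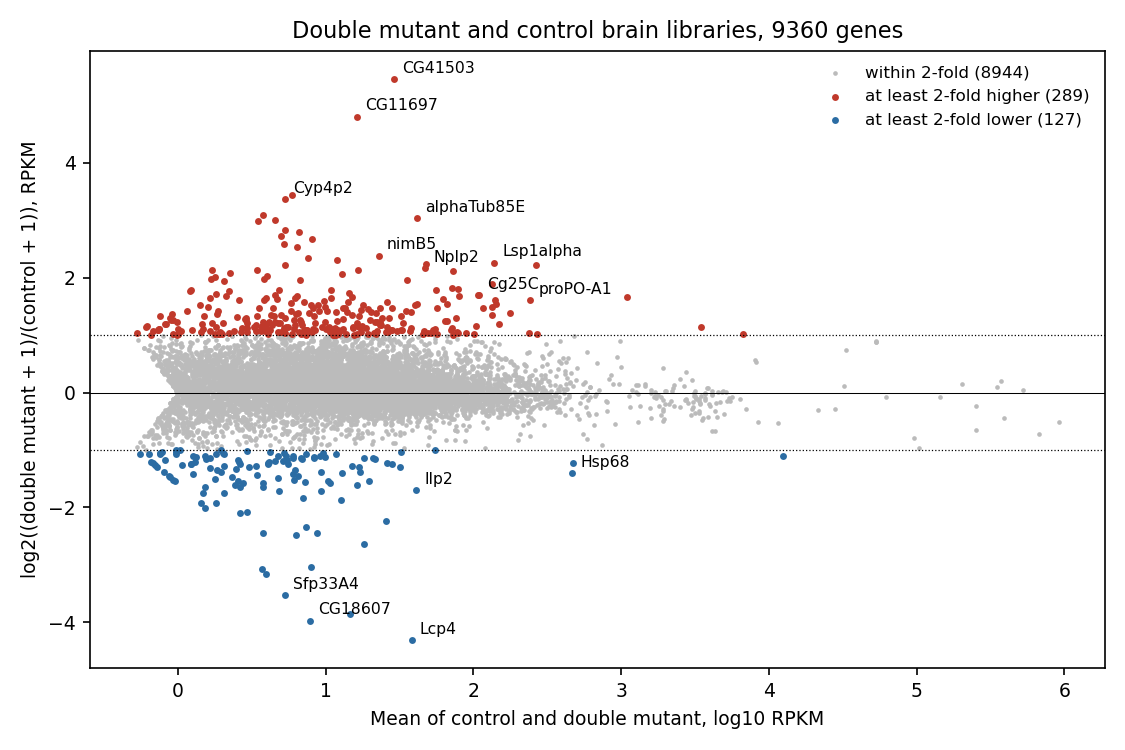
Difference between the double mutant and control libraries, log2((double mutant + 1)/(control + 1)) in RPKM, against the mean of both libraries (log10 RPKM) for 9360 genes, 1 point per gene. Red points are the 289 called higher and blue points the 127 called lower, and the extremes are CG41503 at 5.47 and Lcp4 at -4.31.

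Genes of blood cells (hemocytes) were higher in the double mutant library. Of 16 measured genes, 11 (68.8%, against 3.09% of all genes) were at least 2-fold higher and none was lower. The list median was 1.33 against 0.08 for all genes. The list was chosen with earlier results of these data known, so this contrast is a description and not independent support. Its genes He and nimB5 also share 1 assembled locus. Hml, the clotting protein hemolectin of circulating plasmatocytes, had 29.9, 29.4 and 94.1 RPKM, so the single mutant was level with control and the double mutant was 3.15-fold above it. The 2 prophenoloxidase genes of crystal cells, which blacken wounds, had the highest levels of the group in the double mutant library. proPO-A1 had 119, 92.0 and 365 RPKM and CG8193, the second prophenoloxidase, had 72.7, 43.6 and 214 RPKM. For both genes the single mutant was the lowest of the 3 libraries and the double mutant the highest. In bulk RNA, more blood cells in a preparation and more RNA per blood cell cannot be told apart.

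The phagocytosis and identity genes showed the same direction with other levels in the single mutant. The phagocytic receptor gene eater had 38.02, 74.0 and 91.1 RPKM, and the surface receptor Hemese (He) had 15.1, 40.4 and 38.6 RPKM, so for He both mutant libraries stood above control and close to each other. srp, the GATA factor that specifies blood and fat body cells, had 2.49, 4.02 and 10.3 RPKM, and its partner ush had 1.86, 4.64 and 5.70 RPKM. The largest differences of the list were those of nimB5 of the Nimrod family (6.66, 14.99 and 39.0 RPKM, log2 difference 2.38) and of Nplp2, a neuropeptide-like precursor (16.6, 22.5 and 78.0 RPKM, 2.17). Not every hemocyte gene was 2-fold higher. The plasmatocyte receptor gene nimC1 had 7.94, 7.02 and 4.15 RPKM, lowest in the double mutant. The crystal cell factor lz had 3.99, 5.45 and 6.66 RPKM, above control in the double mutant by less than 2-fold (log2 difference 0.62).

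Genes of the flattened blood cells called lamellocytes were not a list of their own. CG6579, which RefSeq names atilla and which encodes a lamellocyte surface antigen, was among the 20 largest differences with 1.45, 4.96 and 14.7 RPKM (log2 difference 2.68). The integrin subunit alphaPS4, also known from lamellocytes and chosen after its values were seen, had 0.941, 3.44 and 6.69 RPKM. Both mutant libraries stood above control for both genes, with the double mutant highest. Both genes were picked for high values in the double mutant, so their shared direction is fixed by that choice and says nothing of lamellocytes. The lamellocyte prophenoloxidase PPO3 shares a row with l(2)k09913, which had 155, 199.7 and 142 RPKM and cannot be separated.

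Summed over the 17 hemocyte genes in the table, the level was 612, 772 and 1471 RPKM, 2 of the rows joined several genes and none of the genes was listed at 0 in either library. No source used here gives the amount of attached blood tissue, and its part in these differences was not tested.

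Basement membrane genes, many of which blood cells and fat body supply in larvae, were higher as well: 6 of 17 (35.3%) passed 2-fold, none was lower, and the list median was 0.58. The 2 collagen IV chains led the group. Cg25C had 50.9, 82.3 and 167 RPKM and vkg had 69.5, 100.2 and 196 RPKM, with the single mutant between the other libraries for each. Pxn, the peroxidasin that cross-links collagen IV, had 74.997, 120.3 and 193 RPKM. Cg25C and Pxn are also in the hemocyte list, so the lists are not independent.

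Other components of the matrix followed with smaller differences. BM-40-SPARC, a collagen IV chaperone, had 177, 238 and 362 RPKM, and papilin (Ppn) had 44.7, 53.1 and 98.7 RPKM. The laminin chains differed among themselves: LanB2 had 31.6, 52.5 and 66.3 RPKM and passed 2-fold, while LanA (70.4, 99.3 and 132 RPKM) and LanB1 (84.5, 96.5 and 114 RPKM) did not. The perlecan gene trol had 13.1, 15.3 and 20.05 RPKM and nidogen (Ndg) had 1.95, 1.61 and 1.504 RPKM, the only gene of the list below control. The sum over the list was 799, 1106 and 1588 RPKM. When differences were centred on their median over all genes, BM-40-SPARC and LanB2 were below the 2-fold line and 4 genes were above it. The genes of this list are long, with a median transcript of 5.20 kb. With differences centred within classes of transcript length, 4 of 17 passed and the median was 0.44.

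The larval serum proteins, storage hexamerins that the fat body secretes before metamorphosis, were the most marked group of the fat body list. Lsp1alpha had 47.3, 23.0 and 231 RPKM, Lsp1gamma had 34.7, 15.8 and 123 RPKM, Lsp1beta had 64.3, 29.9 and 145 RPKM and Lsp2 had 271, 82.5 and 505 RPKM. For each of the 4 genes the single mutant was lowest and the double mutant highest, with log2 differences from control of 2.26, 1.80, 1.16 and 0.89. In all, 3 of 12 fat body genes (25%) were higher and none lower. The rest of the list was nearer to control: the hexamerin receptor gene Fbp1 had 100.5, 29.5 and 110.4 RPKM, and Rfabg, the main lipoprotein of the fat body, had 17.4, 11.2 and 13.5 RPKM. The list median was 0.25 and its sum 739, 336 and 1386 RPKM, with no gene at 0 in either library. The part of attached fat tissue was not tested.

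**Figure D2:**
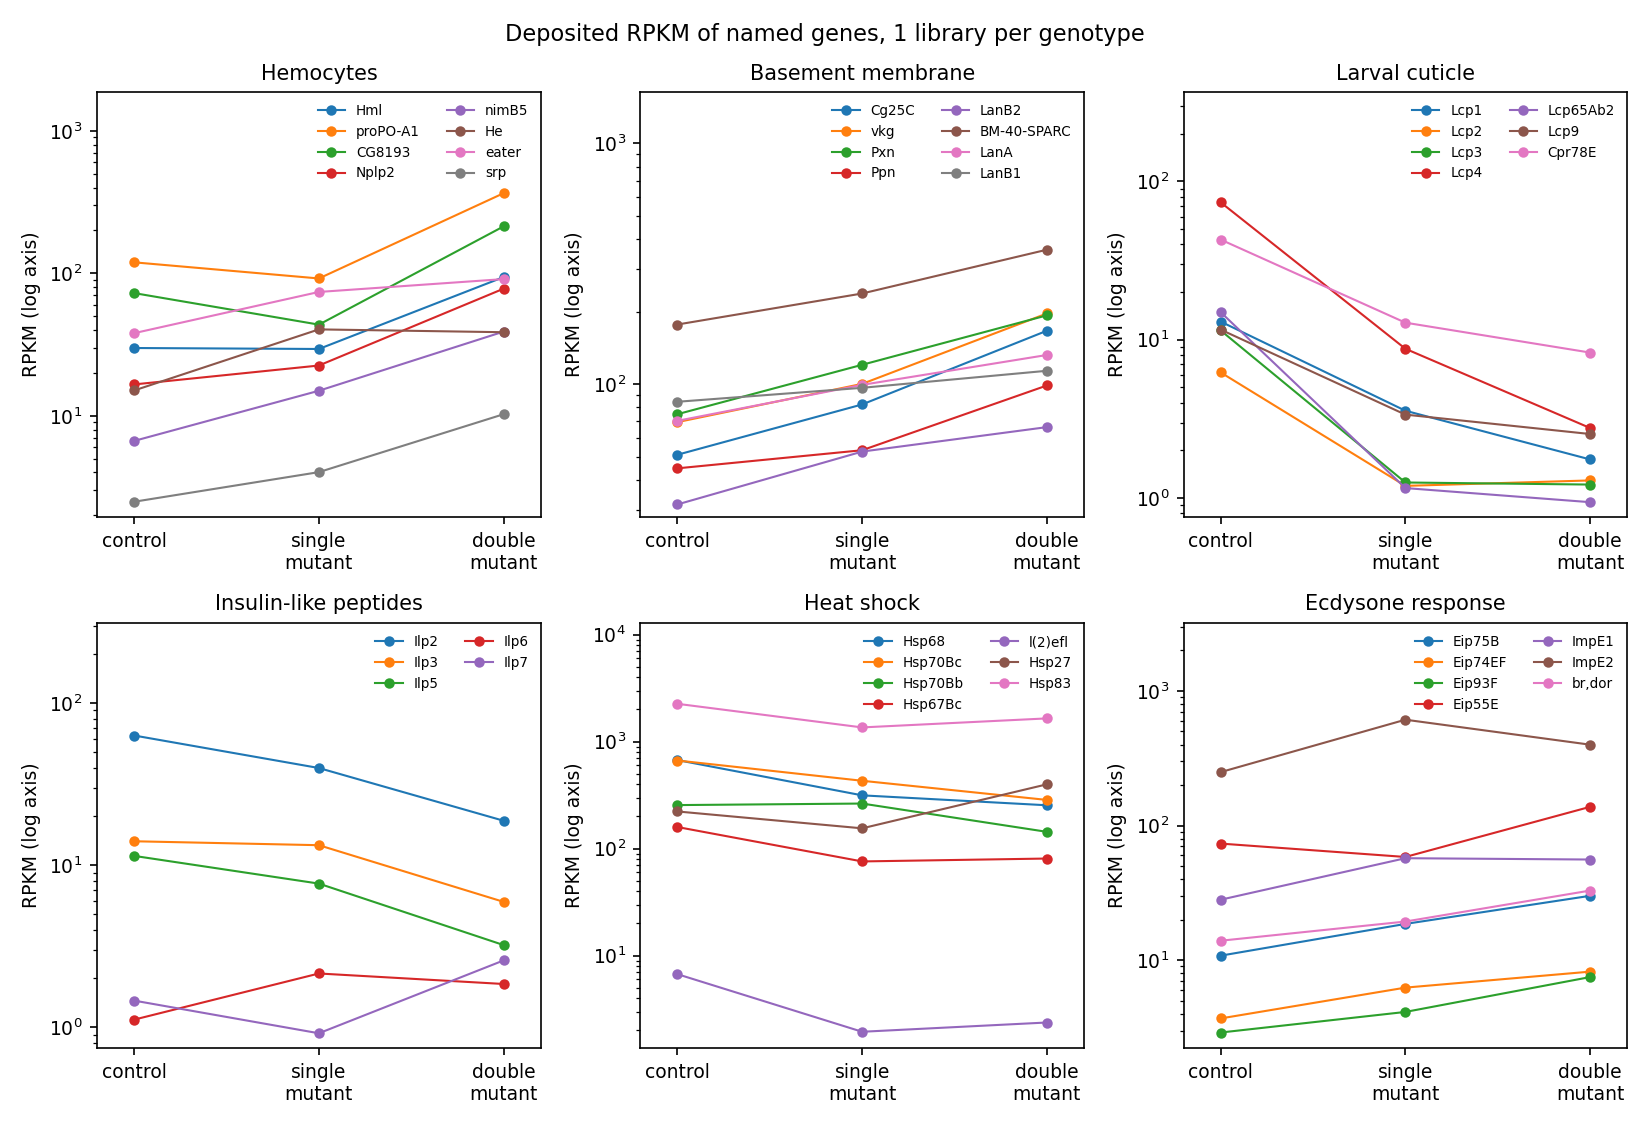
Deposited RPKM (log axis) in the control, single mutant and double mutant libraries, 1 line per gene and 1 library per genotype, for 6 groups of genes. Hml is at 29.9, 29.4 and 94.1 RPKM, Lcp4 at 73.7, 8.77 and 2.77 RPKM, and Ilp2 at 63.0, 39.7 and 18.8 RPKM.

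Genes that answer the steroid hormone ecdysone were higher in the double mutant: 22 of 25 lay above 0, 5 (20%) passed 2-fold and none was 2-fold lower, with a median of 0.50. The nuclear receptor gene Eip75B, an early ecdysone target, had 10.8, 18.6 and 30.1 RPKM. The transcription factor gene broad shares a row with dor, and br,dor had 14.0, 19.4 and 32.9 RPKM. Eip93F, which acts as larvae turn into pupae, had 2.90, 4.13 and 7.49 RPKM. For these 3 rows the single mutant lay between control and double mutant.

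The receptor genes for the hormone differed less. EcR had 22.9, 17.3 and 30.8 RPKM and its partner usp had 15.1, 23.7 and 21.6 RPKM. The joined row CG3600,CG42527, which RefSeq assigns to the nuclear receptor gene Hr4, had 0.317, 0.391 and 3.32 RPKM, and CG12912,Hr46 had 0.573, 2.09 and 2.28 RPKM. The ecdysone-inducible genes ImpE1 (28.1, 57.2 and 56.0 RPKM) and ImpE2 (249, 612 and 399 RPKM) were higher than control in both mutant libraries. In the list of hormone synthesis genes of the ring gland none of 15 passed 2-fold. Their median of 0.02 went to -0.05 when the differences were centred. Cyp6t3, which also has a part in ecdysone synthesis, was counted with the cytochrome P450 genes and not in that list. It was called lower, with a log2 difference of -1.24. Of the 5 ecdysone rows past 2-fold, 3 joined several genes, and 2 of 21 passed when joined rows were left out. With rescaling to the same sum 9 of 25 passed, and with a pseudocount of 5 RPKM 2 did. With differences centred within classes of transcript length, 1 of the 20 genes with a length passed.

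Factors that mark successive birth times of neurons overlapped with the ecdysone list in Eip93F and br,dor. Of 14 such genes, 3 (21.4%) were higher and none was lower, with a median of 0.75. The joined row CG11071,mamo had 1.95, 2.23 and 5.55 RPKM, and chinmo, a factor of early-born neurons, had 6.24, 8.61 and 12.5 RPKM. The RNA-binding gene Imp, also of early neuroblasts, had 3.85, 4.16 and 7.22 RPKM. The medulla neuroblast factors tll (3.31, 2.06 and 2.59 RPKM) and ey (10.03, 8.42 and 9.21 RPKM) were slightly below control in the double mutant. With rescaling to the same sum 5 of 14 passed 2-fold, and with a pseudocount of 5 RPKM 1 did. With joined rows left out 1 of 12 passed, and with length classes centred none of 12 did.

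Neuronal genes were above control without passing 2-fold: none of 30 genes of neuronal differentiation and the synapse was called, yet 24 lay above 0, where 59.2% of all genes lay, and the median was 0.37. The active zone gene brp had 10.4, 7.48 and 21.04 RPKM, lowest in the single mutant and highest in the double mutant. The synaptic vesicle genes n-syb (16.7, 17.6 and 26.4 RPKM) and cpx (20.9, 23.6 and 35.8 RPKM) were higher by less than 2-fold, and Snap25 was nearly level (105, 104 and 116 RPKM). The genes of this list are long, with a median transcript of 8.41 kb, and their median was 0.20 when length classes were centred.

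Among neuroblast genes, 1 of 26 (3.85%) was higher and none lower, near the 3.09% of all genes. That gene was pros, which switches daughter cells from division to differentiation, with 8.08, 9.99 and 22.1 RPKM. The neuroblast factors dpn (14.0, 16.5 and 13.02 RPKM), wor (16.0, 18.4 and 11.5 RPKM) and ase (3.03, 3.70 and 2.43 RPKM) were slightly below control in the double mutant. They were among the 7 genes of the list below 0, while 19 of the 26 lay above it, as did 59.2% of all genes. The scaffold gene mira was level, at 37.3, 43.9 and 38.5 RPKM. The list median was 0.22, and no gene of the 39 for the cell cycle and DNA replication was called, with a median of -0.08 that went to 0.15 when libraries were rescaled to the same sum.

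None of the 21 glial genes was called, and their median of 0.15 went to -0.01 when length classes were centred. Of 37 genes for transmitters and their receptors, 2 (5.41%) were higher. The nicotinic receptor subunit gene nAcRbeta-21C had 17.5, 27.0 and 38.2 RPKM, and the joined row of the serotonin receptor 5-HT1B,CG30126 had 2.07, 1.17 and 6.17 RPKM. Of 29 neuropeptide genes, 1 (3.45%, near the 3.09% of all genes) was higher. That gene was Proct, which encodes the muscle-active peptide proctolin, with 3.56, 6.71 and 8.29 RPKM. It was below the line when differences were centred on their median. Several other peptides were lower by less than 2-fold, among them hug (20.9, 8.08 and 12.3 RPKM) and npf (20.3, 8.35 and 12.7 RPKM), and the neuropeptide median was 0.03, below 0 once centred.

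In the list for learning and memory, the joined row Arc1,CG10102 stood out with 93.3, 1000.3 and 439 RPKM. Arc1 encodes a capsid-like protein that carries RNA between cells at synapses. Both mutant libraries were above control and the single mutant was the highest of the 3. It was the only one of 15 genes (6.67%) past 2-fold, and Arc2, its neighbour in the family, had 15.2, 29.0 and 24.0 RPKM.

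**Figure D3:**
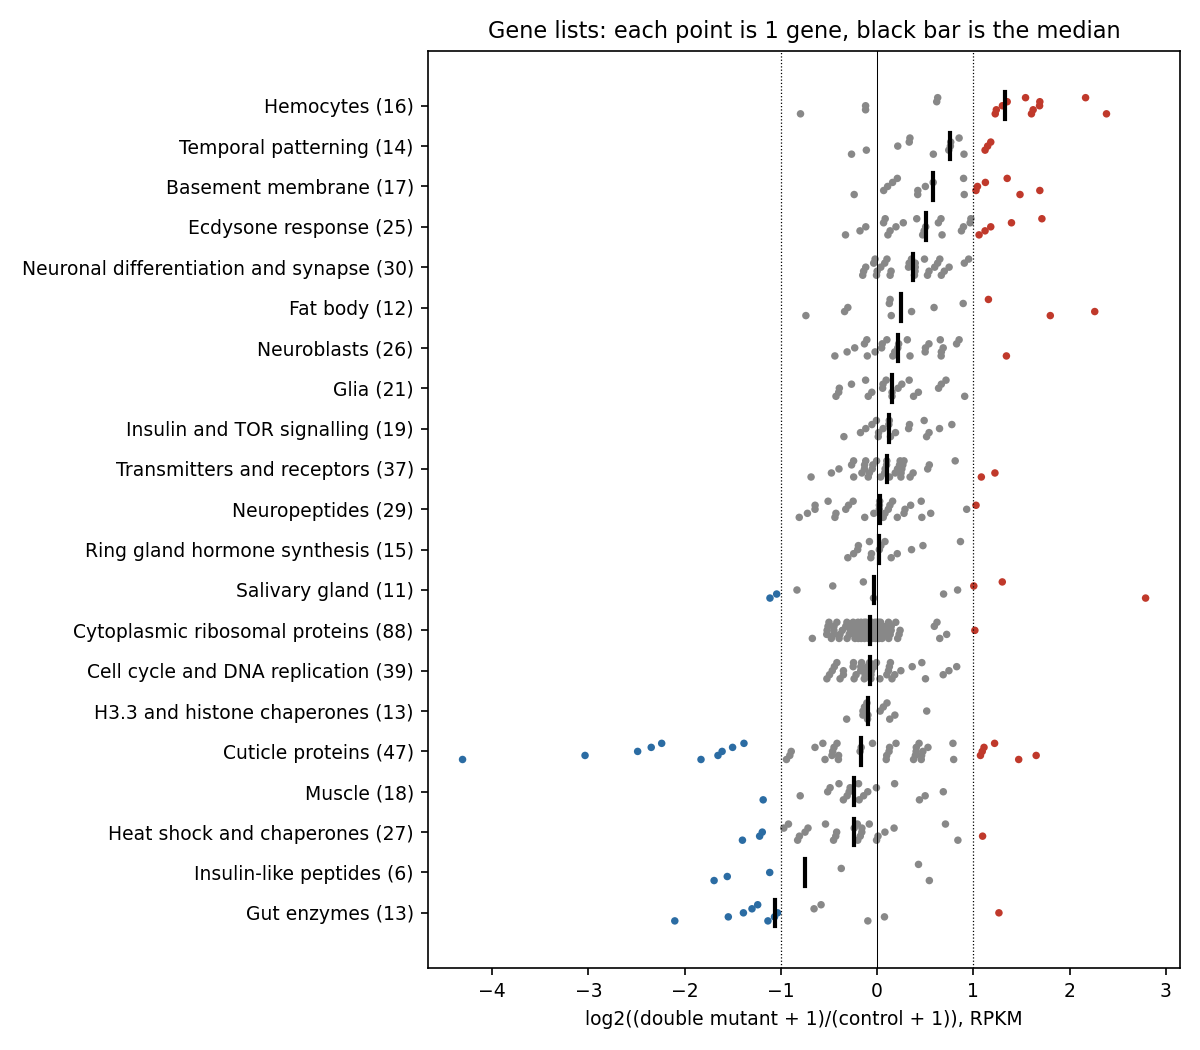
Difference between the double mutant and control libraries (log2 of RPKM + 1), 1 point per gene, for the gene lists named on the vertical axis with the number of genes in brackets. Black bars are list medians, dotted lines mark 2-fold, and medians run from -1.07 for gut enzymes to 1.33 for hemocytes.

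The insulin-like peptides of the brain were lower in the double mutant. The insulin-producing cells of the larval brain secrete the products of Ilp2, Ilp3 and Ilp5, which promote growth and control sugar levels. Ilp2 (chr3L:9792135-9801814, dm3) had 63.0, 39.7 and 18.8 RPKM, a 3.36-fold lower value in the double mutant than in control. Ilp5 had 11.4, 7.70 and 3.22 RPKM and Ilp3 had 14.0, 13.3 and 5.94 RPKM. All 3 genes had their highest level in control and their lowest in the double mutant, and the single mutant value of Ilp3 was close to control.

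None of the peptides known from other cells passed 2-fold. Ilp6, a fat body peptide, had 1.12, 2.15 and 1.85 RPKM, Ilp7 had 1.46, 0.919 and 2.58 RPKM, and CG14059, which encodes Ilp8 of damaged discs, had 1.59, 1.79 and 1.004 RPKM. Ilp6 and Ilp7 were above control in the double mutant and CG14059 was below it. In all, 3 of the 6 measured peptides (50%, against 1.36% of all genes) were lower and none was higher, with a median of -0.74 and 4 of the 6 below 0. The sums over all 8 listed genes were 93.4, 66.1 and 33.8 RPKM. When libraries were rescaled to the same sum, Ilp3 moved inside the line. With a pseudocount of 5 RPKM both Ilp3 and Ilp5 did, leaving Ilp2. Downstream, none of 19 genes of insulin and TOR signalling passed 2-fold. The receptor gene InR had 6.94, 4.35 and 10.6 RPKM and foxo, the factor that insulin signalling holds back, had 3.86, 6.44 and 7.32 RPKM, both highest in the double mutant. The deposited locus of Ilp3 has the same limits as that of Ilp2, so both genes were assembled as 1 region.

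The gene furthest below control was the larval cuticle gene Lcp4 (log2 difference -4.31). Of 47 cuticle protein genes, 10 (21.3%, against 1.36%) were lower and 6 (12.8%, against 3.09%) were higher. Lcp4, which encodes a structural protein (chr2R:4325161-4325908, dm3), had 73.7, 8.77 and 2.77 RPKM, 26.6-fold lower in the double mutant than in control. Lcp65Ab2 had 14.9, 1.16 and 0.942 RPKM and Cpr78E had 42.9, 12.8 and 8.30 RPKM. In these genes both mutant libraries were far below control. The pupal cuticle gene Pcp differed from them, with 25.2, 31.5 and 7.59 RPKM, below control in the double mutant and not in the single mutant.

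The 6 higher cuticle genes had low levels and were of several families, and none passed 2-fold with a pseudocount of 5 RPKM, where 7 genes were lower. TwdlE, of the Tweedle family, had 1.39, 5.76 and 6.53 RPKM, and the chitin-binding gene obst-A had 1.88, 9.96 and 6.99 RPKM. TwdlBeta had 0.0825, 0.700 and 1.28 RPKM. Of the Cpr family, to which the lower gene Cpr78E also belongs, Cpr66D had 2.32, 1.94 and 6.08 RPKM, Cpr65Ay had 0.266, 0.185 and 1.73 RPKM and the joined row Cpr50Cb,stj had 3.70, 5.32 and 9.96 RPKM. Tb, the Tweedle gene altered in the Tubby marker strains and not part of the list, had 0.543, 2.58 and 10.03 RPKM (log2 difference 2.84). The list median of -0.17 became 0.12 when libraries were rescaled to the same sum. It was -0.20 when they were rescaled without the host genes of small RNAs, so its sign depends on the scaling. The sums were 454, 378 and 273 RPKM over 132 genes, of which 13 were listed at 0 in control and 19 in the double mutant. Cuticle is made by epidermis and trachea rather than brain, and the part of attached tissue was not tested.

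Digestive enzyme genes were lower in the double mutant and, by their sum, lower still in the single mutant. Of 13 gut enzyme genes, 8 (61.5%) were lower and 1 was higher, with a median of -1.07 and sums over all 21 listed genes of 131, 13.3 and 54.4 RPKM. The count of lower genes was 5 of 14 when libraries were rescaled to the same sum and 3 of 13, with none higher, with a pseudocount of 5 RPKM. Without a filter on low values the median over 21 genes was -0.33. The serine protease gene Jon65Aiii had 29.9, 0.280 and 9.57 RPKM and deltaTry had 25.1, 0.589 and 8.96 RPKM. The lysozyme genes LysD (4.89, 0.157 and 0.372 RPKM) and LysB (4.12, 1.31 and 1.17 RPKM) were low in both mutants. The amylase gene Amy-p was the exception, with 0.135, 0.945 and 1.73 RPKM. Trypsin and lysozyme genes are near-identical copies whose reads may be split, so single values are uncertain. No gene of the list was at 0 in control or double mutant, and the part of gut tissue in the preparations was not tested.

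Salivary gland genes went both ways. The glue genes Sgs8 (44.3, 184 and 20.95 RPKM) and Sgs7 (84.0, 317 and 46.7 RPKM) were high in the single mutant and lowest in the double mutant. The new-glue gene ng3 had 0.934, 0.604 and 12.4 RPKM, and ng2 (0.0886, 0 and 1.68 RPKM) and ng1 (0.101, 0 and 1.21 RPKM) were above control by smaller amounts. Of 11 genes, 3 (27.3%, against 3.09% of all genes) were higher and 2 (18.2%, against 1.36%) lower. The 3 higher genes, ng1 to ng3, share 1 assembled locus and are not independent. The median of -0.04 turned to 0.19 on rescaling, and the list summed to 202, 676 and 147 RPKM with ng4 at 0 in both libraries. With a pseudocount of 5 RPKM 1 was higher and none lower, and with rescaling 4 were higher and none lower. Of 18 muscle genes, 1 (5.56%, against 1.36% of all genes) was lower: the myosin heavy chain gene Mhc had 7.99, 5.93 and 2.96 RPKM. The part of gland and muscle tissue was not tested.

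Hsp68 and the inducible Hsp70 genes, which answer heat and other stress, were lower in the double mutant. Hsp68 had 673, 315 and 254 RPKM and Hsp70Bc had 666, 431 and 285 RPKM. The small heat shock gene l(2)efl had 6.71, 1.94 and 2.37 RPKM, and the related CG4461 had 15.6, 1.99 and 2.03 RPKM, with both mutants far below control. The other Hsp70 rows, near-identical copies that may share reads, lay between -0.92 for Hsp70Aa,Hsp70Ab (969, 848 and 511 RPKM) and -0.72 for Hsp70Bbb (258, 279 and 156 RPKM).

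Other chaperones were above control or below it by less than 2-fold. Hsp27 had 223, 155 and 399 RPKM and the secretory chaperone Hsc70-3 had 181, 297 and 297 RPKM. The joined row CG31157,Hsc70-2 had 44.5, 75.001 and 96.3 RPKM and passed 2-fold. The abundant Hsc70-4 had 3653, 3884 and 3168 RPKM and Hsp83 had 2257, 1358 and 1649 RPKM. Of 27 genes, 3 (11.1%) were lower and 1 (3.70%) higher, with 21 below 0. The median of -0.24 was -0.01 after rescaling to the same sum, where Hsp70Bc no longer passed 2-fold (log2 difference -0.99). Rescaled without the host genes of small RNAs, the list median was -0.27.

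Immune effector genes split. The complement-like gene TepI had 6.19, 20.2 and 22.8 RPKM, the Toll ligand gene spz had 2.47, 5.28 and 7.06 RPKM and the antibacterial peptide gene CecC had 0.171, 1.31 and 2.15 RPKM, while AttA, another antibacterial peptide gene, had 2.81, 4.11 and 0.820 RPKM. These were 3 higher (12.5%) and 1 lower (4.17%) of 24 genes, with a median of 0.20. IM2 and IM4 were listed at 0 in both libraries. The lectin gene lectin-28C had 26.7, 124 and 119 RPKM, above control in both mutants.

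Cytochrome P450 genes gave 3 higher (6.52%) and 2 lower (4.35%) of 46, against 3.09% and 1.36% of all genes, with a median of 0.02. Cyp4p2 had the largest difference of the list, with 0.107, 0.0871 and 10.5 RPKM (log2 difference 3.37). Its deposited locus has the same limits as that of Cyp4p1, so both were assembled as 1 region. Cyp4p1 had 0.254, 0.0538 and 4.29 RPKM and Cyp4d1 had 2.14, 4.16 and 11.2 RPKM. Cyp12a4, known for insecticide resistance, had 7.49, 3.36 and 2.02 RPKM, and Cyp6t3, which has a part in ecdysone synthesis, had 6.14, 2.69 and 2.03 RPKM. Of 18 glutathione S-transferase genes, GstD7 was higher (1.29, 2.58 and 4.51 RPKM) and GstE5 lower (6.18, 2.54 and 1.41 RPKM), 5.56% in each direction. The tubulin list had 2 higher of 9 (22.2%): alphaTub85E and betaTub60D, a pair of tubulins known from developing muscle, neurons and support cells. alphaTub85E had 8.20, 43.1 and 74.8 RPKM, lowest in control. betaTub60D had 24.4, 42.5 and 86.9 RPKM, and the general tubulins alphaTub84B (2286, 885 and 2068 RPKM) and betaTub56D (2727, 2861 and 2294 RPKM) were slightly below control in the double mutant.

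Other genes past 2-fold were of mixed function. PIP82, a photoreceptor phosphoprotein gene, had 16.1, 16.2 and 79.7 RPKM. The transferrin gene Tsf1 had 66.4, 51.6 and 136 RPKM and Inos, the gene for inositol phosphate synthase, had 156, 110.1 and 321 RPKM, both little past the 2-fold line. The odorant-binding gene Obp56d had 17.9, 139 and 46.5 RPKM, highest in the single mutant. The eye pigment transporter gene w, often carried on transgenes and inserted elements, had 6.74, 2.65 and 23.6 RPKM, and ebony (e), a pigmentation gene of cuticle and glia, had 11.8, 3.54 and 4.89 RPKM. CG34166 (56.1, 16.2 and 210.4 RPKM) and CG32212 (68.1, 52.1 and 211 RPKM), with no function named here, were higher, and CG42500 had 28.4, 8.11 and 1.01 RPKM on the lower side.

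The largest differences also included genes with little known function. CG11697, a REEP-like gene by its RefSeq name, had 0.192, 0.0652 and 32.4 RPKM, and CG33225, a serine protease homologue by its RefSeq synonym, had 0.234, 3.71 and 8.90 RPKM. CG42852 was at 0 in control and single mutant and at 6.95 RPKM in the double mutant. All 3 were below 1 RPKM in control, so their folds depend on the pseudocount.

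Others of this kind were CG17018 (0.564, 3.83 and 9.40 RPKM), which RefSeq names Marf1, and CG14610 (1.17, 3.37 and 11.7 RPKM), with the single mutant between the others. For CG31821 (0.765, 0.748 and 9.64 RPKM), CG18649 (1.82, 0.333 and 13.3 RPKM) and CG8157 (1.23, 0.876 and 9.46 RPKM), the single mutant was at or below control and the double mutant alone was high. On the abundant side CG10131, named Had2 in RefSeq, had 97.1, 275 and 256 RPKM and CG14629 had 90.0, 189 and 206 RPKM, both above control in both mutants.

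Of the genes furthest below control, CG34212 had 7.44, 2.74 and 0 RPKM and CG15221 had 2.84, 0.917 and 0.0151 RPKM. CG32302 (7.11, 0.0805 and 0.478 RPKM), CG17325 (5.34, 0 and 0.505 RPKM), CG14654 (3.45, 0.489 and 0.168 RPKM), CG34227 (20.4, 2.69 and 4.84 RPKM) and CG6912 (2.82, 0.265 and 0.129 RPKM) were low in both mutant libraries. For CG32302, CG17325 and CG34227 the single mutant was the lowest.

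Of 16 measured germline and male genes, some of them sex-linked, 2 (12.5%, against 3.09% of all genes) were higher and none was lower. The median was 0.36, and 13 of the 16 lay above 0, where 59.2% of all genes lay. The higher genes were Acp98AB and Ste12DOR, a Stellate gene on X with 0.0653, 0.275 and 1.75 RPKM. A run of Stellate rows on X, described below and outside the list, was higher too. CG41503, which RefSeq names FDY and which lies on the Y chromosome (chrYHet:297805-344329, dm3), had 0.323, 29.2 and 57.5 RPKM, the largest difference of all. Its parent gene vig2 on another chromosome is similar in sequence, so reads may be shared and this value is uncertain. The male-specific dosage compensation RNAs were close to control, roX1 with 46.2, 63.7 and 66.7 RPKM and roX2 with 367, 264 and 312 RPKM. Y genes that are in the list (ARY, Pp1-Y1, Pp1-Y2 and kl-5) were listed at 0 in both libraries. There kl-3 was at 0 in control and Ppr-Y at 0 in the double mutant. The seminal peptide gene Acp98AB, on 3R, was listed at 0 in control and single mutant and had 7.54 RPKM in the double mutant. Sfp33A4, on 2L and not part of the list, had 10.6 RPKM in control and 0 in both mutants. No source used here gives the sex of the larvae, and its part was not tested.

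Some differing genes lay side by side. In 8 places at least 3 called genes of 1 direction followed each other with gaps of at most 5000 bp. On 2L at chr2L:13963545-13972947 (dm3), nimB2 (11.4, 14.95 and 28.7 RPKM), nimB3 (1.81, 1.43 and 7.64 RPKM), nimB4 (43.8, 81.7 and 109 RPKM), He and nimB5 formed a run of 5 higher genes of the Nimrod region, which encodes phagocytosis receptors and related secreted proteins. A run on 2R at chr2R:4318138-4325908 held Lcp1 (13.02, 3.56 and 1.75 RPKM), Lcp2 (6.22, 1.19 and 1.29 RPKM), Lcp3 (11.4, 1.25 and 1.22 RPKM) and Lcp4, all lower.

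Another run on 2R at chr2R:15172055-15177305 held 4 genes that were nearly absent from the double mutant library. CG18607 had 15.6, 28.7 and 0.0524 RPKM and CG10474 had 7.91, 22.4 and 0 RPKM. CG10476 had 3.04, 7.86 and 0 RPKM and CG18606 had 1.40, 3.07 and 0 RPKM. RefSeq names 3 of them as arylalkylamine N-acetyltransferase-like genes, an enzyme family that acetylates amines. In each of the 4 the single mutant was the highest library and the double mutant the lowest, 3 of them being listed at 0 there.

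On 3R at chr3R:13239653-13247924 a run of 5 higher genes had no assigned function in the annotation used. In it CG42834 had 5.55, 68.3 and 27.7 RPKM and CG33333 had 3.36, 33.6 and 20.6 RPKM, with the single mutant highest in both. CG14332 had 5.14, 30.7 and 15.4 RPKM. The remaining runs were lectin-28C, TwdlE and Proct on 2L, LysB, LysD, LysE and LysP on 3L, ng1 to ng3 on X, and 8 rows of Stellate genes on X. Stellate genes are tandem near-identical copies, their values ran from 0.109 to 0.281 RPKM in control and from 1.37 to 3.01 RPKM in the double mutant, and they count as 1 signal. Neighbours in 1 assembled locus can share reads, so genes of a run are not independent observations.

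**Figure D4:**
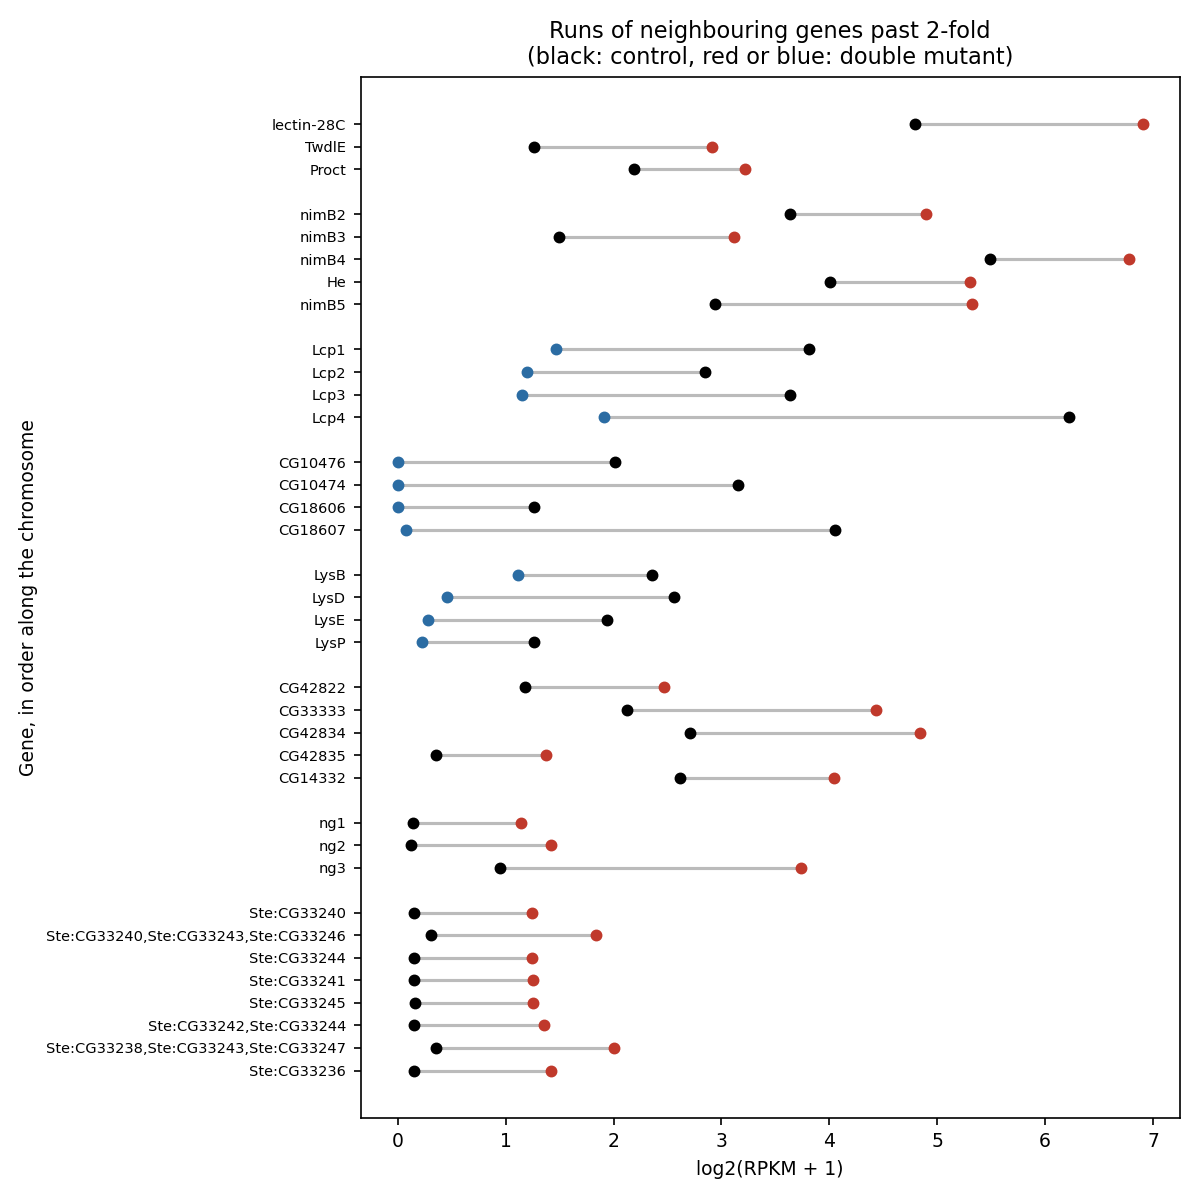
Level in log2(RPKM + 1) of the genes in the 8 runs of at least 3 neighbouring genes past 2-fold, in order along the chromosome, with control in black and the double mutant in red (higher) or blue (lower). The Nimrod run lies to the right of control throughout, and CG10476, CG10474 and CG18606 lie at 0 in the double mutant.

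Calls were not spread evenly over chromosome arms and transcript lengths. Over all genes, 3.09% were higher and 1.36% lower. On X, 69 of 1565 genes (4.41%) were higher and 10 (0.639%) lower, with a median difference of 0.15. Those 69 count each of the 8 Stellate rows, near-identical copies, and ng1 to ng3, which share 1 assembled locus. On 3L, 47 of 1846 (2.55%) were higher and 42 (2.28%) lower. Both targeted genes lie on 3R, where 61 of 2251 (2.71%) were higher and 19 (0.844%) lower. The share of higher genes on 3R was thus near that over all genes. Of the 51 genes on heterochromatic and unplaced sequences, 3 (5.88%) were higher and 1 (1.96%) lower.

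By length of the longest annotated transcript, the 1526 genes under 1 kb had the highest shares of both higher (5.50%) and lower calls (3.93%). Genes of at least 4 kb had 3.84% higher and 0.305% lower, with a median of 0.26, against medians between 0.00 and 0.06 in the shorter classes. The neuronal, basement membrane, ecdysone and temporal factor lists are rich in long genes and the cuticle, gut and insulin-like peptide lists in short ones. With differences centred within the length classes, 248 genes were higher and 116 lower, and 11 hemocyte genes were higher, with a median of 1.38. What moves with length in these values was not tested.

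**Figure D5:**
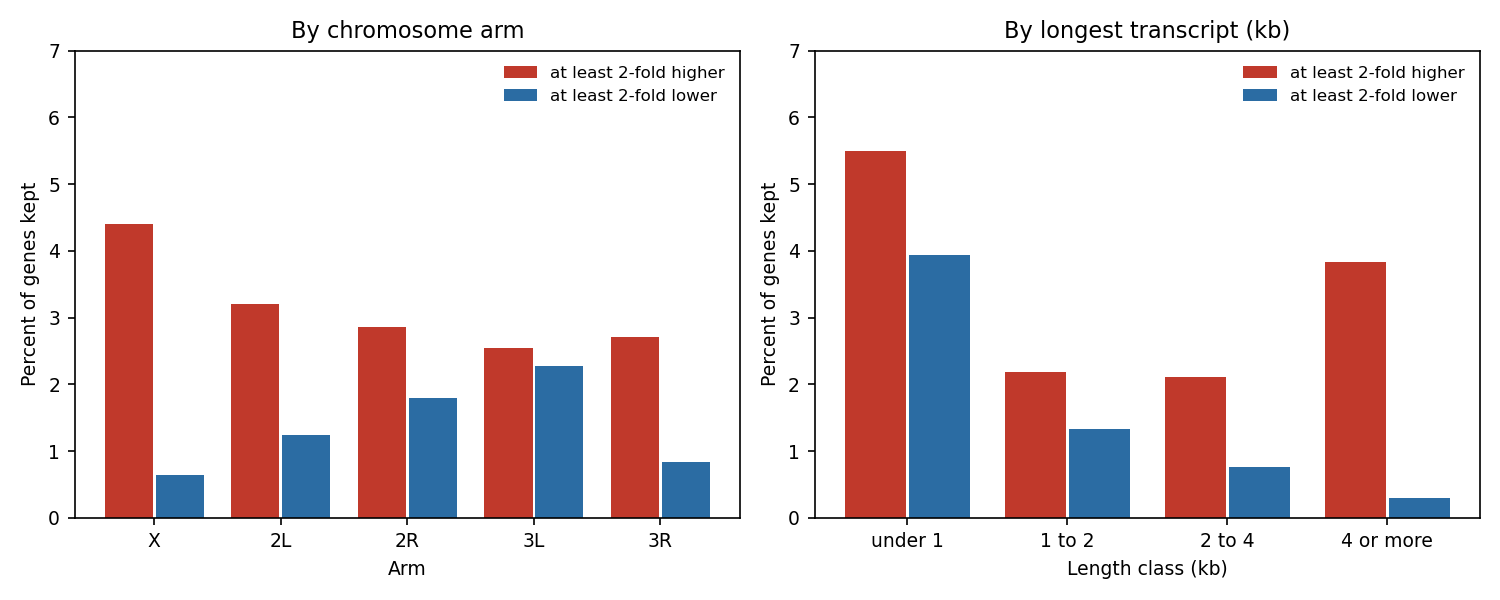
Percent of genes called higher (red) or lower (blue) in the double mutant library at 2-fold, by chromosome arm on the left and by length class of the longest transcript in kb on the right. X has 4.41% higher, with each Stellate row counted, and 0.639% lower, and the class of at least 4 kb has 3.84% higher and 0.305% lower.

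No listed gene of the complexes in which the mutated genes act was called in the double mutant. With 4.44% of all genes called in either direction, lists this short hold few or no calls by that share alone. None of 13 genes for H3.3 and histone chaperones was called, and the median was -0.10. Hira had 8.76, 2.80 and 9.48 RPKM, nearly level between control and double mutant, while the single mutant was below control (log2 difference -1.36). His3.3B, 1 of the genes for H3.3, had the largest difference of the group, with 322, 584 and 460.3 RPKM (log2 difference 0.52). None of 7 cullin 4 ligase genes was called, and Cul-4 had 27.8, 31.2 and 23.9 RPKM. The medians of both lists became positive (0.14 and 0.06) when libraries were rescaled to the same sum, so their sign depends on that scaling.

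Among other chromatin genes, osa, a subunit of the Brahma remodeller, had 13.8, 18.1 and 29.3 RPKM and was the only called gene of 26 (3.85%) in the Polycomb and trithorax list. It was below 2-fold when differences were centred. fs(1)h, a bromodomain gene of the BET family, had 13.5, 20.4 and 32.97 RPKM, and the acetyltransferase gene nej had 7.20, 7.98 and 19.0 RPKM. Both genes were chosen after their values were seen. None of 24 genes for remodellers and heterochromatin was called, and the gene of the heterochromatin protein HP1 had 293, 396 and 293 RPKM.

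Housekeeping groups held no or few calls. None of 72 mitochondrial ribosomal, 31 proteasome, 22 oxidative phosphorylation, 20 glycolysis or 17 Notch target genes passed 2-fold. Their medians lay between -0.20 and 0.07, and each turned sign under at least 1 rescaling or centring. The single call among 88 cytoplasmic ribosomal genes was the joined row Gs1l,RpL27A, which hosts a small RNA. Host genes of small RNAs carried very large values that mix both transcripts, such as Msp-300 with 16897, 13392 and 7856 RPKM, and they are uncertain.

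Genes close to the 2-fold line show what it divides. Those just past it on the higher side were cher (48.4, 60.3 and 97.8 RPKM), RhoGAP100F (7.18, 6.55 and 15.4 RPKM) and Smr (10.1, 4.68 and 21.2 RPKM), and GstD5 (1.96, 11.5 and 4.92 RPKM) lay just under it. On the lower side CG30359, which RefSeq names as the maltase Mal-A5, was just past it (73.4, 42.6 and 36.1 RPKM) and lectin-33A just short of it (10.7, 11.1 and 4.89 RPKM).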

How the data were processed

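The authors deposited 1 table of RPKM values per assembled locus, with a gene name and dm3 position, for 3 libraries. Per the submitters' processing notes the tools were FastQC, Trimmomatic, then, with versions, TopHat2 2.0.9 as well as Cufflinks 2.0.2, and the build was dm3. No source used here gives settings or strand handling, so overlapping and antisense genes cannot be told apart.

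Differences were computed from the deposited RPKM as log2((double mutant + 1)/(control + 1)), with a pseudocount of 1 RPKM and a minimum of 1 RPKM in either library, in Python 3.11.15 with pandas 2.3.3 and numpy 2.4.6. Figures were drawn with matplotlib 3.10.9. With 1 library per group a gene was counted from a 2-fold difference, and no test was run. The counting was tested on a copy of the control values with known fold changes put in and no noise. That checks the arithmetic and says nothing of how often unreplicated libraries give such calls. Genes at 0 in 1 library have no RPKM fold and are said to be listed at 0.

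Of the rows, 1769 (11.6%) named no gene, 101 repeated a name, 234 genes were left out by their small RNA or mitochondrial names and 3765 were under 1 RPKM in both libraries. Of the genes kept, 446 were rows that join several genes, written with commas, and 374 host a small RNA. Depth was approximated from the commonest smallest step of RPKM times length in kb (0.03 to 0.04 in control and double mutant, 0.04 to 0.05 in the single mutant), taken as 1 read. RPKM gives no interval for single values.

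The 45 gene lists and the genes compared were chosen with earlier results of these data known. Named genes were the 20 highest and 20 lowest differences among rows of 1 gene, the called genes of at least 50 RPKM (at most 15 per direction), and in each list the called genes (at most 5 per direction) and the 2 most abundant. Any gene named beyond these was chosen after its values were seen, as were the rule for neighbouring genes, corrected list names and 3 added alternatives. Lengths, host genes and current names came from BDGP6 and RefSeq Release 6 annotation, of which no coordinates were used. A length was found for 93.6% of the genes kept. Alternatives varied the pseudocount, filter, threshold, scaling, joined and repeated rows, small RNA hosts, unnamed rows and length.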

Additional observations from a re-analysis of the deposited data

Results flagged for a closer look

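Loci without a gene name took no part in the comparison, and 3 of them carried RNA in the double mutant library above the level in control. Among loci of at least 400 bp these had the largest differences. An unnamed locus assembled within chr3R:7047615-7233479 (dm3), the limits also given for pros, was listed at 0 in control and single mutant and had 7.33 RPKM in the double mutant. Another within chr2L:18455647-18471823 was at 0.605 RPKM in control, against 8.55 in the single mutant library and 10.4 in the double mutant library. A locus within chr3L:5554798-5758806 was at 0 in control, against 11.1 RPKM in the single mutant library and 5.81 in the double mutant library. Of 1703 unnamed loci with at least 1 RPKM in either library, 244 (14.3%) were higher and 423 (24.8%) lower, against 3.09% and 1.36% of the named genes.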

How the results depend on the processing

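The counts of 289 higher and 127 lower genes depend on low values and on scaling. With a pseudocount of 0.1 RPKM they were 502 and 253, and with 5 RPKM they were 99 and 30. A minimum of 5 RPKM left 71 lower genes. Rescaling both libraries to the same summed RPKM gave 525 higher genes and moved the median difference from 0.08 to 0.29. A 1.5-fold threshold gave 1073 and 369, and a 4-fold threshold 30 and 16. With unnamed rows included the counts were 533 and 550, with no excess of higher genes. The other alternatives left both counts within 1.5 times, from 223 to 297 higher and from 116 to 157 lower, and no named gene changed its direction among the called genes. Of 192 named genes, 44 called ones fell inside the 2-fold line with a pseudocount of 5 RPKM, 8 with centring on the median and 8 with rescaling to the same sum. The cause of these shifts was not tested. Differences of genes of a few RPKM are limited by depth. No paired analysis was possible because each group had 1 library and no replicate numbers, and leaving out a library would leave no comparison.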

Other observations

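The following regulators outside the lists were chosen after their values were seen, because they were above control, so their direction is fixed by that choice and says nothing of their pathways. The RNA-binding genes Atx2 (6.51, 9.95 and 19.9 RPKM), rin (8.94, 15.7 and 26.1 RPKM) and pum (9.38, 12.6 and 23.2 RPKM) act in the control of translation and RNA granules. The kinase gene wts had 2.66, 4.41 and 8.04 RPKM and the kinase gene hipk had 14.1, 22.4 and 33.2 RPKM. The Notch co-activator gene mam had 9.22, 17.4 and 21.6 RPKM, while none of the 17 Notch target genes passed 2-fold. The corepressor genes Gug (7.42, 1.82 and 16.0 RPKM) and Smr (10.1, 4.68 and 21.2 RPKM) had their lowest values in the single mutant. Of the Rab GTPase list, Rab5, a gene of early endosomes, had 15.9, 42.4 and 36.1 RPKM and was the only call among 23 genes (4.35%).

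Small RNA rows, left out of the comparison, lay lower as a group in the double mutant. Of 217 rows with at least 1 RPKM, 8 were higher and 30 lower, with a median log2 difference of -0.54. Over all named genes kept, 3.09% were higher and 1.36% lower, and the median was 0.08. Short lengths can inflate RPKM values of small RNAs, and the part of length here was not tested.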
